A study of Homo sapiens with 6 samples.

Results

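The miR-191 and miR-425 cluster consists of 2 neighbouring miRNA genes that lie in an intron of DALRD3, and each precursor gives a 5p and a 3p mature strand. The 4 mature strands hsa-miR-191-5p, hsa-miR-191-3p, hsa-miR-425-5p and hsa-miR-425-3p were taken by name from a table of 2588 mature human miRNAs. The miRNAs were sequenced in Huh7 cells, a human hepatoma cell line, that had been transfected with a plasmid using Lipofectamine 2000 and were collected after 48 h. In the overexpression group (n = 3) the plasmid carried hsa_circ_0098181, a circular RNA, and the control group (n = 3) received a control plasmid under the same conditions. The comparison asked whether the miRNA profile differed between cells given the circular RNA and cells given the control plasmid. The level of hsa_circ_0098181 itself was not measured in the table of mature miRNAs.

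The depth, as the sum of all counts of a sample, was 7978507, 8469016 and 8289232 counts in overexpression replicates 1 to 3. For control replicates 1 to 3 it was 10786295, 8677214 and 7144798 counts. Of the 2588 miRNAs, 1366 had a count in at least 1 sample. The labels number the samples within each group, but nothing says that they were separate cultures, so the p-values measure only the spread between these samples, which may be technical. Control replicate 3 stood apart from the other control samples. CPM are counts relative to the sample's total count, here also corrected with the TMM factors described below. For the 152 miRNAs averaging at least 100 such CPM, the median absolute log2 difference was 0.049 between control replicates 1 and 2. It was 0.21 between control replicate 3 and each of them. Between control replicate 3 and overexpression replicates 1, 2 and 3 it was 0.12, 0.19 and 0.16, so this sample was nearer to each overexpression sample than to either of the other controls. Between the overexpression samples it was 0.078 to 0.11, and the fold changes of the cluster and the strand ratios that moved without control replicate 3 are also given without it.

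As background, miR-191 and miR-425 are made from a common transcript together with DALRD3, whose protein takes part in the methylation of certain tRNAs. Drosha and Dicer cut each hairpin into a duplex, of which usually the guide strand is loaded into Argonaute and the passenger strand is degraded, and the bases of the seed at the 5′ end of the loaded strand pair with target mRNAs. miR-191-5p is present in many tissues, has been described as raised in several tumors including hepatocellular carcinoma, and is often used as a reference for RT-qPCR of miRNAs because of its even level.

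The sequences of the mature strands were taken from RefSeq (GRCh38.p14), which matched 3 of the 4 members, and they are shown because the strands of a hairpin share their transcript but not their seed. The entry missing was that of hsa-miR-425-5p. The bases 2 to 8, the seed, are in capitals, all are written from 5′ to 3′, and all lie on the minus strand, at chr3:49020672-49020694, chr3:49020631-49020652 and chr3:49020159-49020180 in the order given.
hsa-miR-191-5p: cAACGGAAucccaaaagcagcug
hsa-miR-191-3p: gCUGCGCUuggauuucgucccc
hsa-miR-425-3p: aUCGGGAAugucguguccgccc
The 3 seeds differed from each other, and no other of the 2370 mature names in RefSeq carried any of them. The GC content was 52.2% in hsa-miR-191-5p and 63.6% in each of the 3p strands shown.

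The hairpin of MIR191 is shown with both mature strands in capitals, at chr3:49020618-49020709 on the minus strand, to place the strands whose counts are compared.
MIR191: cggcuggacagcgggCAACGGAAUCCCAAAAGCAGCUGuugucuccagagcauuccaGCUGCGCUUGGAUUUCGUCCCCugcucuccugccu
The 5p strand takes bases 16 to 38 and the 3p strand bases 58 to 79 of the 92 bases. In GENCODE 29 (GRCh38), MIR425 lies at chr3:49020148-49020234, 383 bases downstream of MIR191 in the direction of transcription, and both lie inside DALRD3 at chr3:49015488-49022293, all on the minus strand. Both hairpins fall in intron 1 of 4 of the 15 annotated DALRD3 transcripts and in no exon of those 4. MIR191 also lies in an intron of a transcript of NDUFAF3, a mitochondrial complex I assembly factor gene on the opposite strand, and MIR425 lies outside NDUFAF3. Another 13 mature miRNAs of the table have genes within 1 Mb of MIR191, and these were nearly absent, with 7 at 0 in all 6 samples, a highest count of 4 and a sum of 29 counts.

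hsa-miR-191-5p, the guide strand of MIR191, had 106387, 111804 and 113765 counts from overexpression replicate 1 to replicate 3, against 129270, 105731 and 97488 counts from control replicate 1 to replicate 3. As TPM, which in the deposited table is computed in the same way as CPM, these were 13334, 13202 and 13724 after overexpression, against 11985, 12185 and 13645 with the control plasmid. Control replicate 3 lay between the overexpression samples and apart from the other control samples, so the groups overlapped. The overexpression mean was 13420 ± 272 TPM (SD, n = 3), against 12605 ± 906 TPM (SD, n = 3) for the controls. In these bulk samples, more cells that make a miRNA and more of it per cell cannot be told apart.

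The composition of the libraries differed, and the TMM factors, which correct the library size for it, were 0.921 to 0.996 in the overexpression samples and 1.00 to 1.09 in the control samples. With the TMM factors, hsa-miR-191-5p was at 13386, 14344 and 14194 CPM after overexpression, against 11932, 11812 and 12546 CPM with the control plasmid. All overexpression samples were then above all control samples, with control replicate 3 the nearest of the controls. The level was 1.16 times that of the control group (95% confidence interval 1.04 to 1.28), a log2 fold change of 0.21 ± 0.069 (SE), but edgeR's quasi-likelihood test gave an adjusted p of 0.314 over 552 miRNAs. With the library size alone the median log2 fold change of all miRNAs tested moved from 0.0038 to -0.11 and that of hsa-miR-191-5p from 0.21 to 0.090, so that relative to the median it was 0.20 under both.

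hsa-miR-425-5p, the guide strand of MIR425, had 6830, 7058 and 7585 counts after overexpression, against 8628, 7208 and 6644 counts with the control plasmid, each in the order of replicates 1 to 3. This was 856, 833 and 915 TPM after overexpression, against 800, 831 and 930 TPM with the control plasmid. The highest and the lowest of the 6 values were both in the control group, and the groups overlapped. With TMM factors the values were 859, 905 and 946 CPM after overexpression, against 796, 805 and 855 CPM with the control plasmid, which did not overlap, although overexpression replicate 1 and control replicate 3 were nearly equal. The log2 fold change was 0.14 ± 0.088 (SE), with a 95% confidence interval of -0.048 to 0.33 and an adjusted p of 0.598 with edgeR. With the library size alone it was 0.025, and relative to the median of all miRNAs tested it was 0.14 under both.

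The 3p strands, the passenger strands, were much less abundant. hsa-miR-191-3p had 839, 719 and 818 counts after overexpression, against 1074, 897 and 694 counts with the control plasmid, and its TMM values were 106, 92.2 and 102 CPM against 99.1, 100.2 and 89.3 CPM. Overexpression replicate 2 and control replicate 3 were the low samples, and the groups overlapped. hsa-miR-425-3p had 376, 450 and 396 counts in the overexpression samples and 556, 429 and 332 counts in the control samples, and its TMM values were 47.3, 57.7 and 49.4 CPM against 51.3, 47.9 and 42.7 CPM. Here overexpression replicate 2 was the highest sample and control replicate 3 again the lowest, and the groups overlapped too. The log2 fold change was 0.054 ± 0.11 (SE) for hsa-miR-191-3p (95% confidence interval -0.18 to 0.29, adjusted p = 0.849 with edgeR). For hsa-miR-425-3p it was 0.12 ± 0.12 (SE), with an interval of -0.14 to 0.38 and an adjusted p of 0.721 with edgeR. This value fell to 0.0044 with the library size alone, where the median of all miRNAs tested was -0.11. It fell to 0.026 without overexpression replicate 2. The sign for hsa-miR-191-3p depended on the scaling, since its log2 fold change was -0.056 with the library size alone.

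All 4 strands passed the filter on low counts, and 0 of the 4 had an adjusted p under 0.05, where 0 of all 552 miRNAs tested did (0%). At an unadjusted p under 0.05 with edgeR there was 1 of the 4, hsa-miR-191-5p, against 50 of 552 (9.06%), and over all miRNAs DESeq2 gave 0 adjusted and 41 unadjusted calls. The groups did not overlap with TMM factors for 2 of the 4, the 5p strands, against 15.4% of all miRNAs tested, and in TPM for 0 of the 4, against 18.3%. With the library size alone 0 of the 4 had an adjusted p under 0.05, against 3 miRNAs (0.543%). hsa-miR-191-5p had rank 15 of 552 by p, and 11 of the 152 miRNAs with at least 100 CPM had a log2 fold change as high as its own or higher. Among those 152 the median log2 fold change with TMM factors was 0.051, with 95 higher and 57 lower after overexpression, and that of the other miRNAs tested was -0.035. With the library size alone the median of all miRNAs tested was -0.11. At an unadjusted p under 0.05 with edgeR, 1 miRNA was then higher and 69 lower, against 24 and 26 with TMM factors.

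Without control replicate 3, 1 of the 4 strands passed, against 56 of 565 miRNAs (9.91%), of which 18 were higher after overexpression (3.19%). This was hsa-miR-191-5p, with a log2 fold change of 0.22 ± 0.059 (SE), a 95% confidence interval of 0.097 to 0.34 and an adjusted p of 0.0103 with edgeR, whereas its adjusted p was 0.333 to 0.847 over the other 13 alternatives. The estimate hardly moved, from 0.21 to 0.22, while its standard error fell from 0.069 to 0.059. Without that sample the log2 fold change was 0.16 for hsa-miR-425-5p (adjusted p = 0.228 with edgeR), 0.032 for hsa-miR-425-3p (adjusted p = 0.903 with edgeR) and -0.014 for hsa-miR-191-3p (adjusted p = 0.964 with edgeR). What set control replicate 3 apart was not tested.

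**Figure D1:**
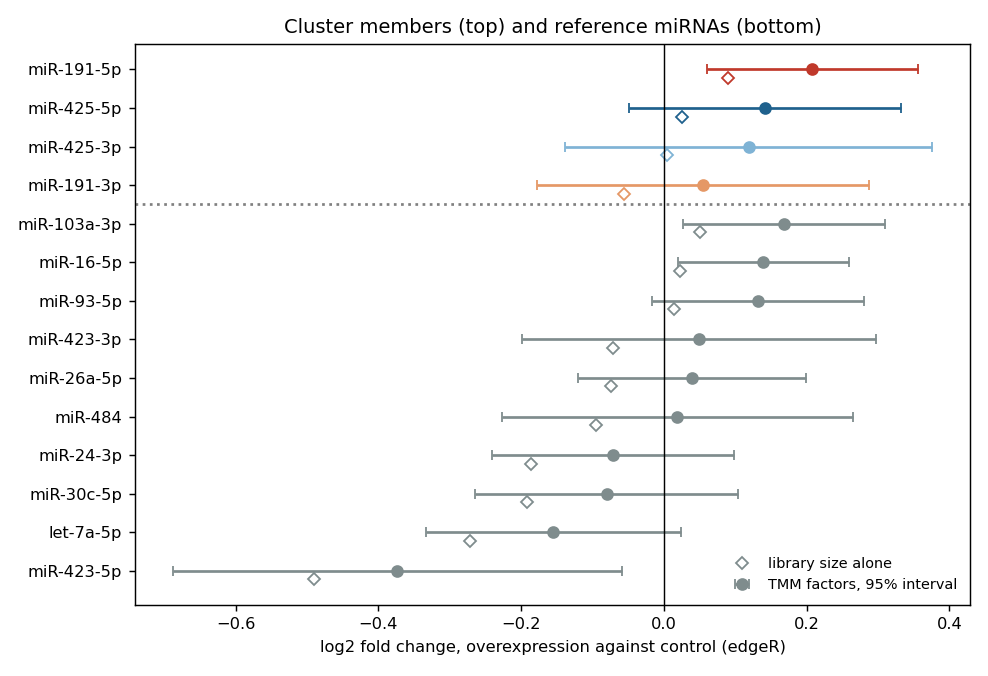
Log2 fold change, overexpression against control, for the cluster members (above the dotted line) and for other miRNAs used as RT-qPCR references (below it), with filled points and 95% confidence intervals from edgeR with TMM factors and open diamonds for the library size alone. With TMM factors the interval of miR-191-5p runs from 0.060 to 0.36 and those of the other 3 members include 0, and with the library size alone each value lies further to the left, with miR-191-3p at -0.056.

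By mean TPM over the 6 samples, hsa-miR-191-5p had rank 14 of the 2588 miRNAs, hsa-miR-425-5p rank 67, hsa-miR-191-3p rank 154 and hsa-miR-425-3p rank 193. The cluster held 1.42% to 1.48% of all counts in the overexpression samples and 1.29% to 1.47% in the control samples. Within the cluster hsa-miR-191-5p gave 92.5% to 93.1% of the counts, and the order of the 4 strands was the same in all 6 samples with no overlap between neighbours. In the order of all miRNAs, hsa-miR-191-5p at 13012 TPM lay between miR-29a-3p at 13018 TPM and miR-19b-3p at 12797 TPM. hsa-miR-425-5p at 861 TPM lay between miR-455-5p at 883 TPM and miR-30d-5p at 840 TPM. These gaps were smaller than the SD over samples, so neither guide strand was distinct from its neighbours in rank. Levels of different miRNAs also contain the efficiency with which each is ligated and amplified, which was not measured.

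The balance of the strands was compared within each library, where the library size cancels. The log2 ratio of hsa-miR-191-5p to hsa-miR-191-3p was 6.99, 7.28 and 7.12 after overexpression, against 6.91, 6.88 and 7.13 with the control plasmid. Control replicate 3 lay among the overexpression samples, so the groups overlapped, and the 5p strand had 140 ± 14.4 times the counts of the 3p strand after overexpression and 126 ± 12.4 times in the control group (SD, n = 3 each). The difference of 0.15 in log2 had an exact two-sided permutation p of 0.3, where 0.1 is the smallest p that 3 against 3 samples can give, and 0.45 after Benjamini-Hochberg adjustment over the 3 ratios tested. The overlap was with control replicate 3, without which the difference was 0.23 and the groups did not overlap, and without overexpression replicate 2 the difference was 0.078.

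For MIR425 the log2 ratio of 5p to 3p was 4.18, 3.97 and 4.26 after overexpression, against 3.95, 4.07 and 4.32 with the control plasmid. The groups overlapped over nearly their whole range. The 5p strand had 17.7 ± 1.79 times the counts of the 3p strand after overexpression and 17.4 ± 2.31 times in the control group (SD, n = 3 each), and the difference of 0.022 in log2 had an exact permutation p of 0.9 (adjusted 0.9). Without control replicate 3 the difference was 0.12, and its sign changed when any of 4 other samples was left out, to -0.059 at the lowest. Both precursors gave mostly the 5p strand in every sample, and MIR191 more so than MIR425.

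Among 135 precursors with both arms tested, 80 had more 5p than 3p counts, and the median absolute log2 ratio was 3.69. MIR191, with a mean of 7.05, had rank 26 by this size and MIR425, with 4.13, rank 56. The SD of the log2 ratio over the 6 samples was 0.15 for each, against a median of 0.27, so the arm ratio of both varied less than that of most precursors. This SD contains counting error, which is larger for precursors with few counts and was not separated here. The arm ratio did not overlap between the groups for 0 of these 2 precursors, against 26 of 135 (19.3%).

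The guide strands of both genes kept a nearly fixed proportion, although some other abundant miRNAs followed each of them more closely, as described below. The log2 ratio of hsa-miR-191-5p to hsa-miR-425-5p was 3.96, 3.99 and 3.91 after overexpression, against 3.91, 3.87 and 3.87 with the control plasmid. All overexpression samples were above all control samples, but overexpression replicate 3 and control replicate 1 differed by less than the SD within the overexpression group. There were 15.5 ± 0.43 reads of hsa-miR-191-5p for each read of hsa-miR-425-5p after overexpression and 14.8 ± 0.18 in the control group (SD, n = 3 each). The difference of 0.066 in log2, a factor of 1.05, had an exact permutation p of 0.1, the smallest possible, and an adjusted p of 0.3 by the same exact test.

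The spread of this ratio was set beside that of guide strands from other clusters. Of 15 pairs, 10 had at least 100 mean counts for both strands, and the SD of the log2 ratio over the 6 samples was lowest for miR-191-5p and miR-425-5p, at 0.046. The next were miR-182-5p and miR-183-5p at 0.058, and miR-25-3p and miR-93-5p, which are made in an intron of MCM7, at 0.077. The highest was 0.24 for miR-195-5p and miR-497-5p at its lower depth, where counting alone gives 0.15. For miR-191-5p and miR-425-5p counting alone gives 0.017, and the observed spread was larger than that. In this ratio the groups also did not overlap for miR-221-3p and miR-222-3p, miR-25-3p and miR-93-5p, and miR-17-5p and miR-20a-5p. They overlapped for the other pairs with at least 100 mean counts. The passenger strands gave 1.96 ± 0.33 reads of hsa-miR-191-3p per read of hsa-miR-425-3p after overexpression and 2.04 ± 0.092 in the control group (SD, n = 3 each).

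**Figure D2:**
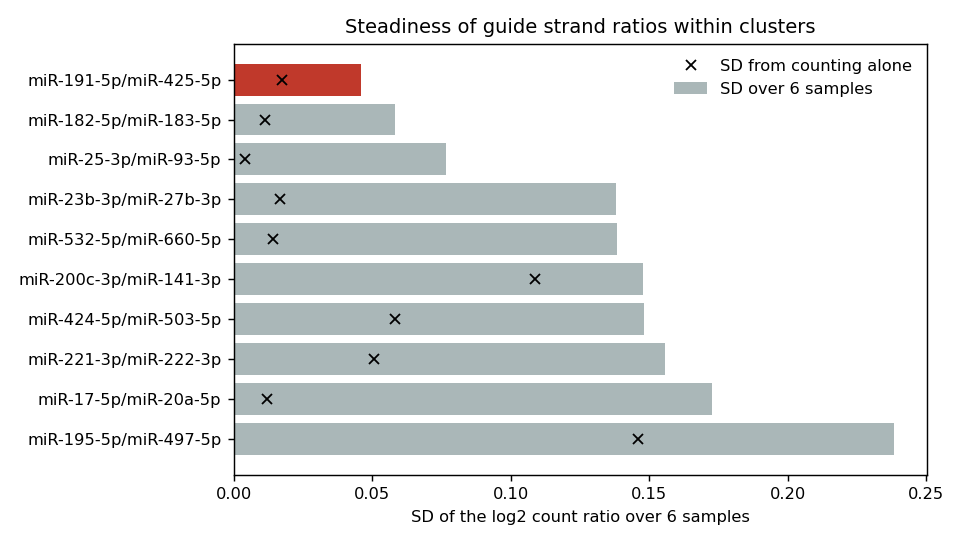
SD over the 6 samples of the log2 ratio of the guide strands of clustered miRNAs, with the pair miR-191-5p and miR-425-5p in red, and crosses for the SD that counting alone gives. The pair of miR-191-5p and miR-425-5p has the lowest of the 10 values, 0.046.

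hsa-miR-191-5p is used as a reference for RT-qPCR, so its evenness was described. The SD of its log2 TMM level over the 6 samples was 0.12, rank 65 from the most even of the 152 miRNAs with at least 100 CPM, whose median was 0.13 and whose range was 0.034 to 0.90. hsa-miR-425-5p, also used as a reference, had 0.096 and rank 34. Within the groups, where the difference between them does not enter, the SD was 0.050 for hsa-miR-191-5p (rank 16) and 0.063 for hsa-miR-425-5p (rank 28). With the library size alone the values over the 6 samples were 0.084 (rank 35) and 0.085 (rank 37). Both lay on the more even side of the abundant miRNAs, but miR-24-3p (0.061, rank 8), miR-26a-5p (0.068, rank 11), miR-16-5p (0.084, rank 24) and miR-30c-5p (0.093, rank 30) had a smaller SD with TMM factors than either. miR-93-5p (0.097, rank 37), miR-103a-3p (0.10, rank 40), let-7a-5p (0.11, rank 49) and miR-484 (0.11, not ranked) lay between the guide strands, and miR-423-3p (0.15, rank 94) and miR-423-5p (0.31, rank 143) were less even than both. The scaling changed this order. Without TMM factors, miR-24-3p (0.14, rank 85), miR-30c-5p (0.13, rank 74), let-7a-5p (0.17, rank 108), miR-484 (0.17), miR-423-3p (0.19, rank 118) and miR-423-5p (0.39, rank 149) were less even than both guide strands, and miR-26a-5p (0.084, rank 33) was close to them. Within the groups miR-24-3p (rank 18), miR-26a-5p (rank 36) and miR-30c-5p (rank 57) were less even than hsa-miR-191-5p, and miR-16-5p was more even than both guide strands there (rank 8) and with the library size alone (rank 20). The same held for miR-103a-3p (ranks 10 and 28), and miR-93-5p was more even than both with the library size alone (rank 15). hsa-miR-191-3p and hsa-miR-425-3p had 0.091 and 0.14, and were not ranked because they were below 100 CPM.

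The counting error was small beside the spread of the guide strands and took up more of that of the passenger strands. The coefficient of variation of the TPM over the 6 samples was 5.74% for hsa-miR-191-5p, where the counting error of a sample was at most 0.320%, and 5.95% for hsa-miR-425-5p, where it was at most 1.23%. For hsa-miR-191-3p it was 7.28% with a counting error of 3.05% to 3.80%, and for hsa-miR-425-3p 5.36% with 4.24% to 5.49%. With TMM factors the SD of hsa-miR-425-3p was larger, at 0.14 in log2.

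**Figure D3:**
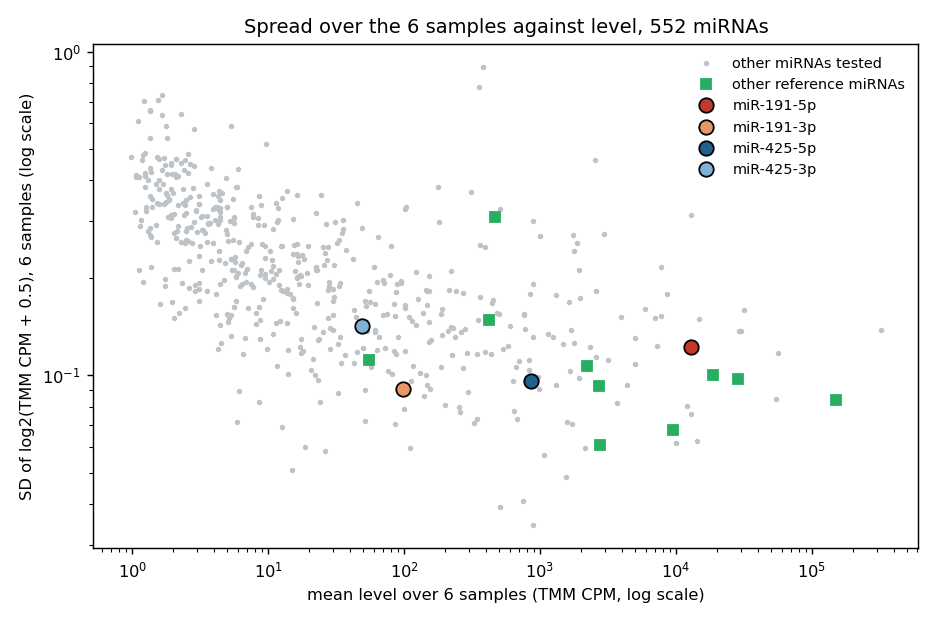
SD of the log2 TMM level over the 6 samples against the mean level in CPM for the 552 miRNAs tested, with the cluster members and the reference miRNAs marked. miR-191-5p, at an SD of 0.12, and miR-425-5p, at 0.096, lie below the median of 0.13 of the miRNAs with at least 100 CPM.

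The 2 guide strands were placed beside 11 other miRNAs commonly used as references, of which miR-361-5p, with 25 counts in all, was not tested. Of the 12 tested, 8 had a higher and 4 a lower level after overexpression, but with the library size alone 5 were higher and 7 lower. With TMM factors the median log2 fold change of the list was 0.044. It was 0.0038 for all miRNAs tested and 0.051 for the 152 with at least 100 CPM, of which 95 were higher and 57 lower. Leaving out a sample moved the median, which was 0.020 without control replicate 1, with 6 higher and 6 lower, 0.028 without control replicate 2, 0.074 without overexpression replicate 2 and 0.086 without control replicate 3. None had an adjusted p under 0.05 with edgeR or DESeq2, and 4 of the 12 had an unadjusted p under 0.05 with edgeR, against 9.06% of all miRNAs tested. Besides hsa-miR-191-5p these were miR-103a-3p with a log2 fold change of 0.17, miR-16-5p with 0.14 and miR-423-5p with -0.37, each with an adjusted p of 0.421 with edgeR. Without control replicate 3, miR-191-5p and miR-103a-3p passed the adjusted threshold, where 9.91% of all miRNAs tested did, and the log2 fold change of miR-423-5p was -0.22 in place of -0.37. When hsa-miR-191-5p was itself the scaling reference, each of the other 11 tested had a lower level. This follows from the scaling, since hsa-miR-191-5p had the highest log2 fold change of the 12 with TMM factors, at 0.21. The log2 fold changes were then -0.15 for hsa-miR-191-3p, -0.066 for hsa-miR-425-5p and -0.094 for hsa-miR-425-3p (adjusted p = 0.453, 0.606 and 0.668 with edgeR). With that scaling the median over all miRNAs tested was -0.21, and 126 of them had an unadjusted p under 0.05, all lower after overexpression, but none an adjusted one.

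**Figure D4:**
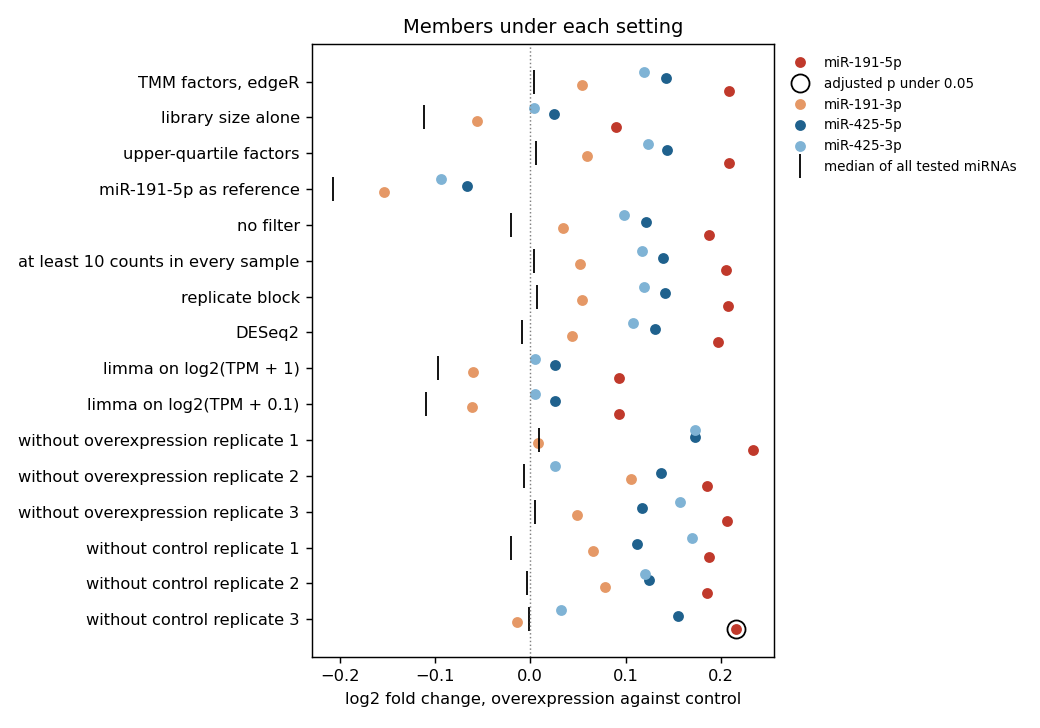
Log2 fold change of each cluster member under the alternatives of scaling, filter, tool and samples, with a short vertical line for the median of all miRNAs tested and a ring where the adjusted p is under 0.05. miR-191-5p stays above 0 in all 14 alternatives, from 0.090 to 0.23, with a ring only without control replicate 3, while miR-191-3p falls to either side of 0, from -0.15 to 0.11.

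The miRNAs whose levels were most like those of the guide strands were found by the root mean square difference of the mean-centred log2 levels over the 6 samples, among 151 miRNAs with at least 100 CPM. For hsa-miR-191-5p these were miR-1269b at 0.018, miR-25-3p at 0.024 and miR-93-3p at 0.029, against a median of 0.14. For hsa-miR-425-5p they were miR-1269a at 0.015, miR-1269b at 0.033 and miR-28-3p at 0.038, against a median of 0.13. The mature sequences of miR-1269a and miR-1269b are nearly the same, so reads could be split between them and both are uncertain. The difference between hsa-miR-191-5p and hsa-miR-425-5p was 0.042, which had rank 12 from hsa-miR-191-5p and rank 6 from hsa-miR-425-5p. The passenger strands were farther from both guide strands, at 0.12 to 0.14, and in overexpression replicate 2 they deviated in opposite directions from their means, by -0.086 for hsa-miR-191-3p and 0.23 for hsa-miR-425-3p.

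The cell type was checked by marker miRNAs. All 4 listed markers of hepatocytes and hepatoma cells were found, with a summed level of 346720 to 383967 TPM, led by miR-122-5p at 330931 TPM after overexpression and 313152 TPM in the control group, which overlapped. With TMM factors the log2 fold change of miR-122-5p was 0.19, beside 0.21 for hsa-miR-191-5p, and its groups overlapped. Its unadjusted p was 0.0108 and its adjusted p 0.314 with edgeR. The other 3 markers overlapped in TPM as well, with miR-192-5p at 31918 against 30998 TPM, miR-194-5p at 12674 against 14035 TPM and miR-885-5p at 17.2 against 17.5 TPM. The 2 red cell markers had 5 to 13 counts per sample, with miR-144-3p at 0 in overexpression replicates 2 and 3. The 4 leukocyte markers summed to 13.7, 12.8 and 13.1 TPM in the overexpression samples and 16.0, 18.6 and 16.5 TPM in the control samples, which did not overlap. The most abundant of them, miR-142-3p, was at 9.23 against 14.1 TPM, which did not overlap. The other 3 had higher means after overexpression, with miR-223-3p at 2.02 against 1.52 TPM, miR-150-5p at 1.5 against 1.2 TPM and miR-142-5p at 0.445 against 0.216 TPM. Of these miR-142-5p did not overlap, but it had only 1 to 4 counts per sample. In TPM 18.3% of all miRNAs tested did not overlap. The endothelial marker miR-126-3p was at 3271, 3244 and 3186 TPM after overexpression. In the control group it was at 3162, 3165 and 3053 TPM, so the groups did not overlap either. In samples of a single cell line this level, rank 30 by mean TPM, cannot be read as a content of endothelial cells. The 4 markers of fibroblasts and smooth muscle summed to 115 to 123 TPM and 123 to 132 TPM, with miR-143-3p the most abundant at 81.8 against 90.2 TPM, which did not overlap. The other 3 overlapped, with miR-199a-3p at 33.0 against 32.3 TPM, miR-145-5p at 3.09 against 4.03 TPM and miR-214-3p at 0.080 against 0.031 TPM and at 0 in 4 of the samples. The part of these markers in the levels of the cluster was not tested.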

How the data were processed

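The miRNA-seq data of 6 Huh7 samples were analysed, with groups from the sample labels. The authors deposited counts of reads per mature miRNA, without normalization, and TPM values, which equalled the CPM computed from the counts to within 0.00303. The submitters' processing notes name TopHat2 2.0.9, Bowtie and TopHat and the build hg38, with no roles. The miRNA annotation and the treatment of multi-mapping reads are not given in the sources used here, and their effect on the counts was not tested.

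Counts were tested in R 4.3.3 with edgeR 4.0.16 (filterByExpr with a minimum count of 10 and total of 15, TMM factors, quasi-likelihood test, two-sided, Benjamini-Hochberg adjustment over all miRNAs tested, threshold 0.05). The fit was tested on simulated data. Log2 levels and ratios had 0.5 added to CPM or counts, and ratios were compared by exact permutation tests. Alternatives were the library size alone, upper-quartile factors, miR-191-5p as the scaling reference, no filter, a stricter filter of 10 counts or more per sample, DESeq2 1.42.0, limma 3.58.1 on log2 TPM with 1 or 0.1 added, 5 added for ratios, the replicate number as a block and leaving out each sample. The miRNAs named were the members, any that share a seed with them, RT-qPCR references, the 3 most like each guide strand, their neighbours in rank, guide pairs of other clusters, neighbours within 1 Mb and cell type markers. The members and lists were chosen with earlier results of these data known. The counting errors given cover counting error only, whereas the 95% confidence intervals from edgeR also contain the spread between samples.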

Additional observations from a re-analysis of the deposited data

How the results depend on the processing

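With edgeR, 0 miRNAs passed an adjusted p of 0.05 (50 unadjusted). This became 3 with the library size alone, 6 without a filter (1366 tested), 3 with limma on log2(TPM + 1), and 0 to 56 when each sample was left out, with 56 without control replicate 3. The log2 fold change of hsa-miR-191-5p was positive in all 14 alternatives (0.090 to 0.23, and 0.19 to 0.23 with a sample left out) and passed the threshold only without control replicate 3, at 0.22. That of hsa-miR-191-3p reversed with the library size alone (-0.056), with miR-191-5p as the reference (-0.15) and with limma with 1 (-0.060) or 0.1 (-0.061) added, and was -0.014 to 0.11 with a sample left out, negative without control replicate 3. Relative to the median of all miRNAs tested, hsa-miR-191-3p was at 0.056, 0.053, 0.037 and 0.049 under these scalings, in that order. Without control replicate 3 it was at -0.013 relative to the median. With miR-191-5p as the reference hsa-miR-425-5p was at -0.066 and hsa-miR-425-3p at -0.094, and in the other alternatives both were positive, but they fell to 0.025 and 0.0044 with the library size alone and to 0.026 and 0.0048 with limma on log2(TPM + 1), and were 0.11 to 0.17 and 0.026 to 0.17 with a sample left out. The number of reference miRNAs that passed was 0 to 2 with a sample left out, with 2 without control replicate 3. The difference of the log2 ratio of hsa-miR-191-5p to hsa-miR-191-3p was 0.15 and ran from 0.078 to 0.23 with a sample left out. The difference of the log2 ratio of hsa-miR-425-5p to hsa-miR-425-3p was 0.022 and ran from -0.059 to 0.12 with a sample left out, negative without overexpression replicate 1 or 3 or control replicate 1 or 2. The cause of these changes was not tested. The SD of hsa-miR-425-3p was 0.14, and 0.076 with the library size alone. With the replicate number as a block the log2 fold changes were 0.21, 0.054, 0.14 and 0.12 for miR-191-5p, miR-191-3p, miR-425-5p and miR-425-3p, with 0 miRNAs past the threshold (42 unadjusted). The deviations of samples with the same number correlated at -0.025, 0.15 and 0.24 over 152 miRNAs. These correlations cannot decide whether samples with the same number were handled together, which the labels do not say. A single cell line and 1 time point were measured, and the counting error was largest for the passenger strands.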
